A study of Mus musculus with 6 samples.

Results

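The fatty acid desaturases and elongases studied here are 10 genes, *Scd1*, *Scd2*, *Scd3*, *Scd4*, *Fads1*, *Fads2*, *Elovl1*, *Elovl5*, *Elovl6* and *Elovl7*. They were found by gene symbol, and all 10 were present among the 34745 genes of each library. The libraries are RNA-seq of CD8+ effector T cells (Teff) grown from the spleens of WT or Scd-1-/- mice, with 3 libraries per genotype. Per the study's methods, the knockout strain was B6.129-Scd1tm1Ntam/J, which was a gift, the WT strain was C57BL/6J, which was bought, and the mice were males aged 6 to 8 weeks. The targeted allele is carried by every cell of the mouse, not by T cells alone. In both groups, splenic CD8+ T cells received anti-CD3 (5 μg/mL), anti-CD28 (0.5 μg/mL) and IL-2 (100 U/mL) for 3 days, then IL-2 for a further 3 days, and RNA was taken on day 6. No source used here says whether the libraries of a genotype came from separate mice, so the p-values measure only the spread between these libraries. The cells were measured in bulk, where fewer cells of a type and less RNA per cell cannot be told apart.

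As background, long-chain fatty acids are made as saturated chains and then remodelled in the membrane of the endoplasmic reticulum. Scd enzymes place the first double bond at the delta-9 position and turn stearate and palmitate into oleate and palmitoleate. *Fads1* and *Fads2* encode the delta-5 and delta-6 desaturases of polyunsaturated fatty acid synthesis, and Elovl enzymes catalyse the first, condensing step that lengthens a chain. The liver X receptors and SREBP1 are known to drive transcription of many of these genes.

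Of the 10 genes, *Scd1*, the targeted gene, alone passed the test between the genotypes. *Scd1* fell to 0.750% of its WT level, whereas *Scd2*, the most abundant member in every library, was at 93.3% of its WT level and its groups overlapped. *Fads1*, the delta-5 desaturase gene, had its 3 Scd-1-/- libraries below all 3 WT libraries, at 74.8% of the WT level, without passing the test after adjustment. *Elovl6*, which encodes the elongase of palmitate, was at 136% of the WT level and its groups overlapped.

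P-values across genes come from edgeR's quasi-likelihood fit of the counts and are adjusted by the Benjamini-Hochberg method over the 9627 genes tested, unless stated. Library totals ran from 14034479 to 15866216 counts, so 3 counts, the floor used for a count of 0, corresponded to 0.189 to 0.214 CPM (counts scaled to the library total). The floor covers counting error only. Of the markers of CD8 T cells, all 6 had a mean FPKM (a level per base of gene and per count of the library) of at least 1, with a summed level of 2702 to 3443 CPM in WT and 2577 to 3048 CPM in Scd-1-/- libraries. *Cd8a* was at 43.2 to 47.6 FPKM in WT libraries and, without overlap, at 27.9 to 36.6 FPKM in Scd-1-/- libraries (71.3% of WT, edgeR adjusted p = 0.297, and 0.0630 with the replicate number as a block), and *Cd8b1* at 80.0% of WT with overlapping groups. *Ms4a1* and *Pax5*, which mark B cells, were at 0 counts in all 6 libraries, as was *Adgre1* of macrophages. The 4 natural killer cell markers summed to 2.50 to 4.82 CPM in WT and 8.47 to 46.1 CPM in Scd-1-/- libraries, and the 6 myeloid markers to 1.38 to 4.66 and 5.48 to 7.29 CPM. Of these, *Klrb1c* was at 0.501 to 0.938 FPKM in WT libraries and 1.66 to 9.39 FPKM in Scd-1-/- libraries (adjusted p = 0.121 by edgeR, 0.0413 in its fit to all 17192 genes with a count, 0.00591 with the block and 6.2e-06 by DESeq2), and *Cd14* at 0.179 to 0.461 and 1.14 to 1.89 FPKM (adjusted p = 0.0956 by edgeR over 17192 genes, 0.0287 with the block and 0.00835 by DESeq2). *Klrb1c* alone was at 2.50 to 4.48 CPM in WT and 8.28 to 46.1 CPM in Scd-1-/- libraries. It thus made up most of the natural killer sum. B cell markers summed to 19.9 to 23.1 and 6.65 to 17.1 CPM, where *Cd79b* was at 9.41 to 10.7 and 3.13 to 7.90 FPKM (edgeR adjusted p = 0.387, and 0.0434 with the block). CD4 T cell markers summed to 44.4 to 84.6 and 57.9 to 80.2 CPM, platelet markers to at most 1.42 CPM and erythroid markers to at most 0.643 CPM. Of adipocytes, a cell type rich in *Scd1*, *Plin1*, *Fabp4* and *Cfd* were at 0 counts in all libraries. With *Adipoq*, the adipocyte sum was at most 0.214 CPM in WT and 0 CPM in Scd-1-/- libraries. Mitochondrially encoded genes took 1.66% to 1.78% of the counts in WT and 2.25% to 3.20% in Scd-1-/- libraries. The part of these values in the results was not tested.

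The 4 Scd genes lie side by side on chromosome 19 of GRCm38. *Scd3* runs from 44203269 to 44244016, *Scd2* from 44293674 to 44306864 and *Scd4* from 44333092 to 44346743, all on the plus strand, and *Scd1* runs from 44394455 to 44407879 on the minus strand. Each has 6 exons in the coding transcript of GENCODE M21 with the longest coding sequence. The coding sequence of *Scd1* was 90.0% identical to that of *Scd2*, 90.6% to that of *Scd3* and 85.1% to that of *Scd4*. How close the copies are bears on how reads can be assigned, so the longest stretch that the coding sequences of *Scd1* and *Scd2* share is shown with 15 flanking bases on each side. It spans exons 4 and 5 of both genes (chr19:44400326-44401820, minus strand, for *Scd1*, and chr19:44299687-44301260, plus strand, for *Scd2*, both intervals including the intron). Capitals mark the only 2 of 177 positions that differ, and the 147 shared bases lie between them.
Scd1: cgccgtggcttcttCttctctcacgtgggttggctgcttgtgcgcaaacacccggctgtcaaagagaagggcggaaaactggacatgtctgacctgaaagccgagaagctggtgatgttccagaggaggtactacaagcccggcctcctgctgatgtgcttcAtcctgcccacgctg
Scd2: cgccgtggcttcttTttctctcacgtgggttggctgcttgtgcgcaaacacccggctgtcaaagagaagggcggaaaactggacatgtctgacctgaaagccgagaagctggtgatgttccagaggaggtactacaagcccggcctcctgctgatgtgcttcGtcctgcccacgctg

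Such stretches are short beside the whole transcripts. Of 4733 windows of 100 bases in the *Scd1* transcript, 126 (2.66%) also occurred in a transcript of another gene, and of 5356 such windows in *Scd2*, 48 (0.896%) did. With windows of 50 bases, the shares were 4.66% for *Scd1* and 4.01% for *Scd2*. *Fads1*, *Elovl1*, *Elovl5* and *Elovl7* had 0 shared windows at either length, and *Fads2* had 5 of 3101 at 50 bases, shared with 1 other gene. *Elovl6* shared 57 of 5852 windows of 100 bases (0.974%) with 1 other gene, and 271 of 5902 windows of 50 bases (4.59%) with 89 other genes. The sources used here do not give the treatment of reads with several matches, so a few reads may have passed between the Scd genes, or between *Elovl6* and the genes that share its windows.

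*Scd1* had 4272, 3074 and 3761 counts in WT replicates 1, 2 and 3, against 30, 36 and 20 in Scd-1-/- Teff. Its FPKM was 58.2, 45.3 and 54.7 in WT and 0.398, 0.528 and 0.261 in Scd-1-/- Teff. The groups lay far apart, which checks the genotype labels, and the 20 to 36 remaining counts stood above the floor of 3 in each library. The files give no position along the gene, so it is not known from which part of the transcript these counts came. The log2 fold change of the counts (Scd-1-/- over WT) was -7.04 (standard error 0.278, 95% interval -7.69 to -6.39, edgeR adjusted p = 1.1e-04). By mean FPKM, *Scd1* moved from rank 1043 of the 34745 genes in WT to rank 11073 in Scd-1-/- Teff.

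*Scd2* encodes a delta-9 desaturase that acts on the same substrates and is known from brain and from developing tissues. Its FPKM was 246, 284 and 330 in WT and 275, 272 and 257 in Scd-1-/- Teff. The Scd-1-/- libraries all lay between the lowest and the highest WT library. On the log2 scale the difference was -0.07 (standard error 0.125, 95% interval -0.36 to 0.22, edgeR adjusted p = 0.902). This interval runs from 0.777-fold to 1.16-fold of the WT level, and its direction turned (0.02) without WT replicate 3. *Scd2* ranked 169 of all genes by FPKM in WT Teff and 188 in Scd-1-/- Teff.

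*Scd3* and *Scd4*, which are known mainly from skin and heart, were at or near the floor. *Scd3* had 1 count in WT replicate 2 and 0 in the other 5 libraries, and no fold is given. *Scd4* had 4, 6 and 5 counts in WT and 12, 4 and 9 counts in Scd-1-/- libraries, or 0.0653, 0.106 and 0.0871 FPKM against 0.191, 0.0703 and 0.141 FPKM. The groups overlapped, and the log2 fold change of 0.65 had a 95% interval from -0.99 to 2.28 (edgeR adjusted p = 0.783 over 17192 genes with a count).

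**Figure D1:**
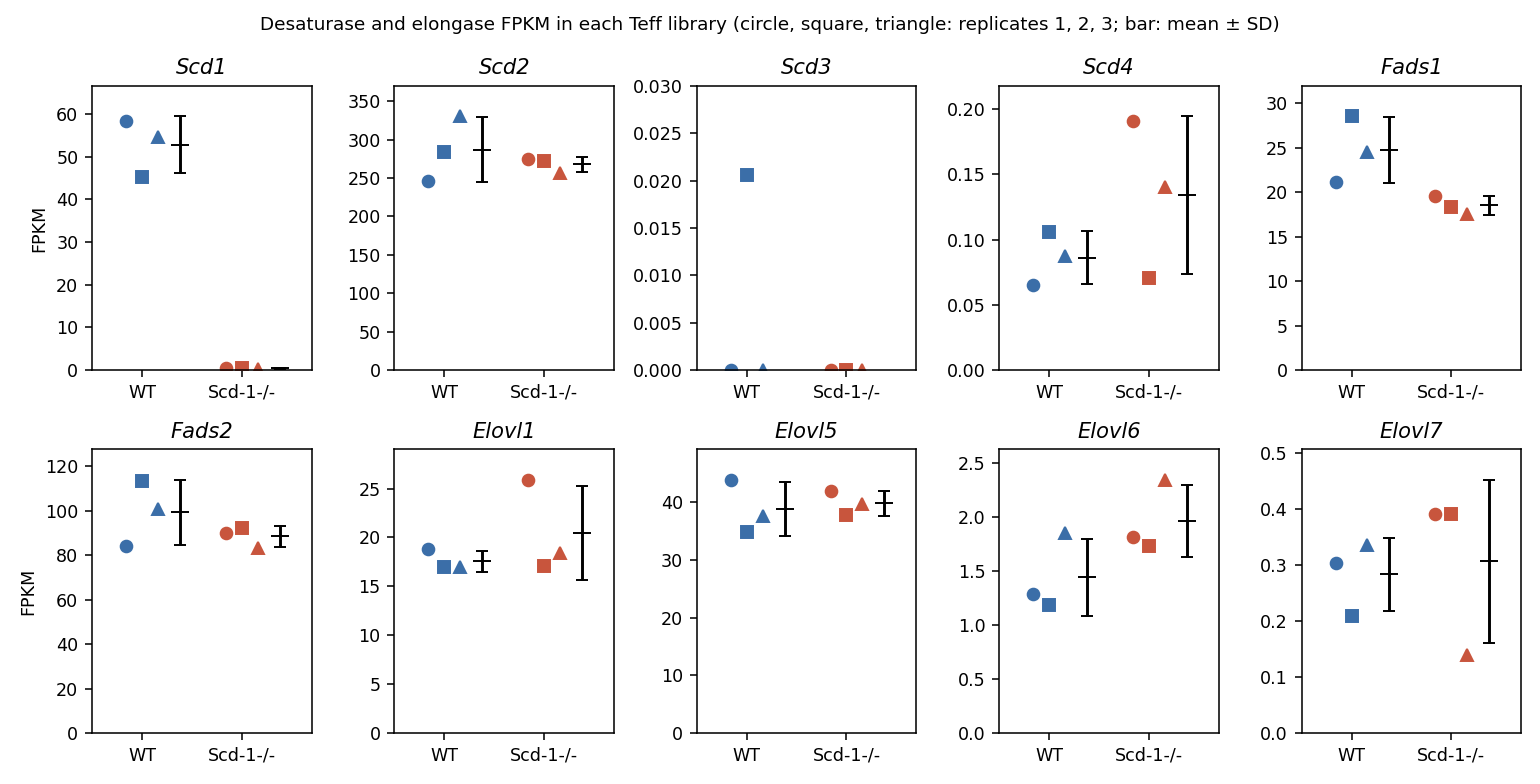
FPKM (vertical axes from 0, a scale per gene) of the 10 genes in 3 WT libraries (blue) and 3 Scd-1-/- libraries (red), with circles, squares and triangles for replicates 1, 2 and 3 and black bars for the mean ± SD (not drawn for Scd3, which had 1 count in all). Scd1 and Fads1 are the genes whose red points all lie below the blue points, and Scd2 holds the highest values, from 246 to 330 FPKM.

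FPKM is scaled to gene length, so the Scd genes can be added within a library. *Scd1* to *Scd4* summed to 305, 330 and 385 FPKM in WT Teff and to 276, 272 and 257 FPKM in Scd-1-/- Teff. The mean was 340 ± 41.2 FPKM in WT Teff and 268 ± 9.98 FPKM in Scd-1-/- Teff (n = 3 each, SD), or 78.9% of WT. All 3 Scd-1-/- libraries lay below the WT libraries (difference of means -71.6 FPKM, two-sided exact permutation test, p = 0.1, the smallest that 3 against 3 libraries can give). Of this difference, *Scd1* gave -52.3 FPKM and *Scd2*, whose groups overlapped, -19.3 FPKM. Because *Scd1* is the targeted gene, its part of the fall was set by the genotype. The test of the sum therefore says nothing about the other Scd genes.

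*Scd1* was the minor transcript of the pair already in WT Teff. It made up 19.1%, 13.7% and 14.2% of the summed Scd FPKM in WT replicates 1, 2 and 3, and *Scd2* 80.9%, 86.2% and 85.8%. In Scd-1-/- Teff, the share of *Scd1* was 0.145%, 0.194% and 0.101%, and *Scd2* made up 99.8% in each library. In RNA amount per length, most delta-9 desaturase transcript of WT Teff was therefore *Scd2*, and it was still present in the knockout. Enzyme activity was not measured in these files.

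**Figure D2:**
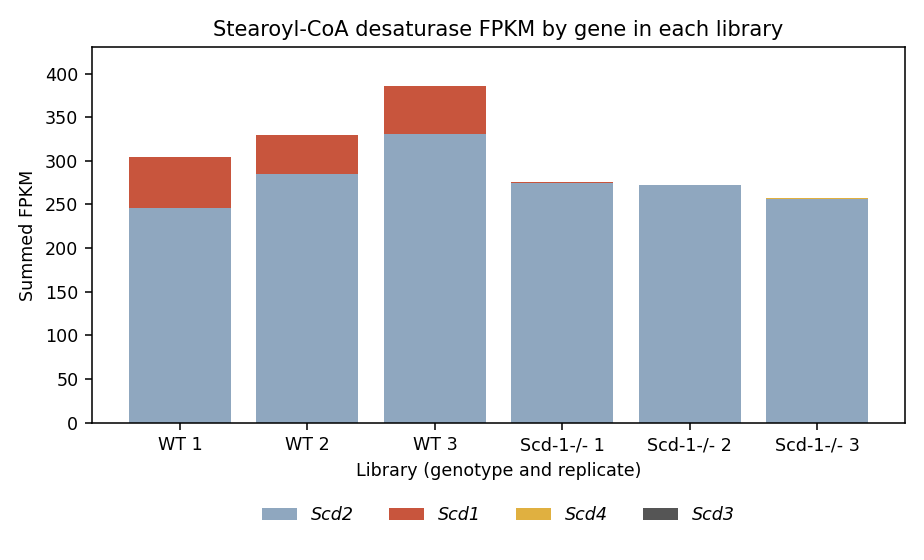
Summed FPKM of Scd1 to Scd4 (vertical axis from 0) in each of the 6 libraries, stacked by gene. Scd2 is the large lower block in every library, Scd1 adds 45.3 to 58.2 FPKM in WT libraries and is not visible in Scd-1-/- libraries, where the sum is 257 to 276 FPKM.

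*Fads1* and *Fads2* lie near each other on chromosome 19, *Fads2* from 10062765 to 10101746 on the minus strand and *Fads1* from 10182888 to 10196877 on the plus strand, far from the Scd cluster. *Fads1* had 1107, 1384 and 1208 counts in WT and 1055, 896 and 961 counts in Scd-1-/- libraries, and its FPKM was 21.1, 28.5 and 24.6 against 19.6, 18.4 and 17.5. The FPKM of the Scd-1-/- libraries did not overlap with WT, although the closest libraries, replicate 1 of each genotype, were at 21.1 and 19.6. The log2 fold change was -0.39 (standard error 0.152, 95% interval -0.75 to -0.04), with edgeR p-values of 0.0326 unadjusted and 0.441 adjusted. In replicates 2 and 3 alone, the log2 fold change of *Fads1* was -0.53 and its edgeR adjusted p was 0.0352, the one alternative of 15 in which it passed 0.05. In that setting 1213 of the 9627 genes had an adjusted p under 0.05, against 11 in the main fit. The other 14 alternatives gave *Fads1* adjusted p-values up to 0.995.

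*Fads2* encodes the rate-limiting delta-6 desaturase. Its FPKM was 84.1, 113 and 101 in WT and 90.1, 92.3 and 83.0 in Scd-1-/- Teff, and the groups overlapped. On the log2 scale the difference was -0.14 (standard error 0.141, 95% interval -0.47 to 0.18, edgeR adjusted p = 0.818). The pair summed to 124 ± 18.3 FPKM in WT Teff and 107 ± 5.58 FPKM in Scd-1-/- Teff (n = 3 each, SD, two-sided exact permutation test, p = 0.3). Without WT replicate 2, the difference of the sums went from -17.1 to -8.35 FPKM and the log2 fold change of *Fads2* to -0.04, and without WT replicate 1 they were -26.6 FPKM and -0.24.

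The balance of both genes within a library was looked at after their values were seen, and is given without a test. *Fads2* was 3.98, 3.97 and 4.11 times *Fads1* by FPKM in WT replicates 1, 2 and 3, and 4.59, 5.02 and 4.74 times in the Scd-1-/- libraries. The ratio was 4.02 ± 0.0777 in WT Teff and 4.79 ± 0.218 in Scd-1-/- Teff (n = 3 each, SD), and the groups did not overlap. A ratio within a library does not depend on library scaling.

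**Figure D3:**
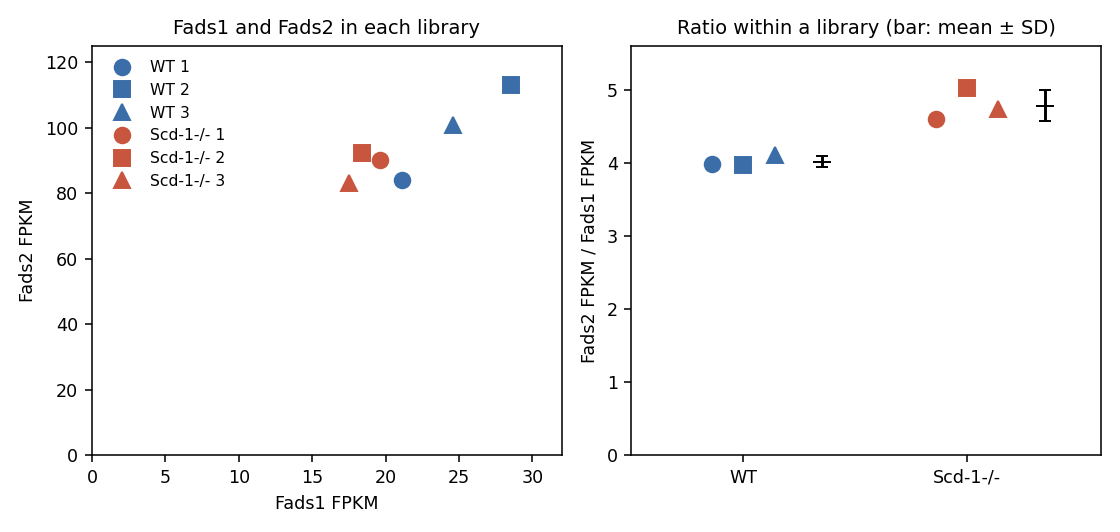
Left, FPKM of Fads2 against Fads1 in each library, both axes from 0. Right, their ratio within a library with the mean ± SD (black bars). WT libraries (blue) sit between 3.97 and 4.11, and Scd-1-/- libraries (red) between 4.59 and 5.02.

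The Elovl genes lie on 4 chromosomes, *Elovl1* on chromosome 4 (118428093 to 118432953), *Elovl5* on chromosome 9 (77917364 to 77984519), *Elovl6* on chromosome 3 (129532355 to 129638495) and *Elovl7* on chromosome 13 (108214404 to 108285683), all on the plus strand. Their coding sequences were 55.3% to 66.6% identical, against 69.1% for *Fads1* and *Fads2*. *Elovl5*, which lengthens polyunsaturated chains and palmitoleate, was the most abundant of the 4, at 43.9, 34.8 and 37.6 FPKM in WT Teff and 42.0, 37.7 and 39.6 FPKM in Scd-1-/- Teff. The groups overlapped (log2 fold change 0.06, standard error 0.141, 95% interval -0.27 to 0.39, edgeR adjusted p = 0.933). Its direction turned (-0.01) without WT replicate 2.

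*Elovl1*, which lengthens saturated and monounsaturated very long chains such as those of sphingolipids, had 18.8, 17.0 and 16.9 FPKM in WT Teff and 25.9, 17.0 and 18.4 FPKM in Scd-1-/- Teff. Only Scd-1-/- replicate 1 lay clearly above the other libraries. The log2 fold change of 0.24 (standard error 0.187, 95% interval -0.19 to 0.68, edgeR adjusted p = 0.745) came to 0.03 without that library.

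*Elovl6*, which lengthens palmitate to stearate, the substrate of Scd1, was expressed at a low level. It had 215, 184 and 291 counts in WT and 312, 270 and 411 counts in Scd-1-/- libraries, or 1.28, 1.19 and 1.85 FPKM against 1.81, 1.73 and 2.34 FPKM. WT replicate 3 lay above Scd-1-/- replicates 1 and 2, so the groups overlapped, while each Scd-1-/- library was above the WT library of the same number. On the log2 scale the difference was 0.48 (standard error 0.229, 95% interval -0.06 to 1.01, edgeR adjusted p = 0.549). The replicate number as a block gave a log2 fold change of 0.48 and an edgeR adjusted p of 0.105.

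*Elovl7*, which acts on saturated chains, had 25, 16 and 26 counts in WT and 33, 30 and 12 counts in Scd-1-/- libraries, between 0.139 and 0.391 FPKM over all libraries. Its groups overlapped, and the log2 fold change of 0.12 (95% interval -0.97 to 1.22, edgeR adjusted p = 0.952 over 17192 genes) turned to between -0.08 and -0.01 in 4 alternatives. Summed over the 4 genes, the Elovl FPKM was 58.1 ± 5.70 in WT Teff and 62.5 ± 6.82 in Scd-1-/- Teff (n = 3 each, SD, two-sided exact permutation test, p = 0.5). Each Scd-1-/- sum was above the WT sum of the same number (70.1 and 64.3, 56.9 and 53.2, 60.5 and 56.7 FPKM), and the exact sign-flip test of these pairs gave p = 0.25, the smallest that 3 pairs allow. The difference of 4.43 FPKM came to 0.634 FPKM without Scd-1-/- replicate 1 and 1.99 FPKM without WT replicate 2, and to 7.24 to 7.56 FPKM without Scd-1-/- replicate 2 or WT replicate 1.

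Ordered by mean FPKM, WT Teff had *Scd2* first, then *Fads2* (99.4), *Scd1* (52.7), *Elovl5* (38.8), *Fads1* (24.7), *Elovl1* (17.6), *Elovl6* (1.44), *Elovl7* (0.283), *Scd4* (0.0861) and *Scd3*. The 3 values of each gene down to *Scd4* lay above all 3 of the next. In Scd-1-/- Teff, *Elovl1* (20.5) stood next to *Fads1* (18.5) with overlapping values, *Scd1* (0.396) overlapped *Elovl7* (0.307), and *Elovl7* overlapped *Scd4* (0.134). Apart from *Scd1*, the members that were abundant or scarce in WT were so in the knockout.

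Counted over the family, 7 of the 10 genes had a mean FPKM of at least 1 and entered the fit to 9627 genes, *Scd1* through its WT libraries alone. The other 3, *Scd3*, *Scd4* and *Elovl7*, were read from the fit to all 17192 genes with a count. Of the 7, only *Scd1* had an adjusted p under 0.05 in the edgeR fit, against 0.114% of all tested genes (0.0415% lower). The study's own rule asks for a change of 1 or more on the log2 scale and an unadjusted p under 0.001, which *Scd1* alone of the 7 passed, against 0.738% of all genes (0.239% lower). An unadjusted p under 0.05 was reached by 2 of the 7 (*Scd1* and *Fads1*), against 10.1% of all genes. Groups that did not overlap in CPM were found for the same 2, both lower, against 16.1% of all genes (7.66% lower and 8.4% higher). *Scd1* is the targeted gene, so its call and its lack of overlap were set by the genotype. Without it, 0 of the 6 other tested members had an adjusted p under 0.05 or passed the study's rule. An unadjusted p under 0.05 and groups without overlap were each found for 1 of the 6 (*Fads1*). In the fit to all genes with a count, 0 of the 3 scarce members had an adjusted p or an unadjusted p under 0.05, against 0.489% and 8.57% of the genes. Of the 6 tested members other than *Scd1*, 3 had a log2 fold change below 0 and 3 above, with a median of -0.01, beside a median of -0.000506 over all tested genes. With the replicate block, 0 of these 6 had an adjusted p under 0.05 in the edgeR fit, where 4.7% of all genes did, and 2 (*Fads1* and *Elovl6*) had an unadjusted p under 0.05, where 22.4% did. DESeq2 and limma on log2(FPKM + 1) called 0 of the 6, against 2.76% and 0.177% of all genes.

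The enzymes and regulators that work with these genes were read from 6 lists of 48 genes, of which 31 were tested. In the edgeR fit, 0 of the 31 had an adjusted p under 0.05 and 0 an unadjusted p under 0.05, where 0.114% and 10.1% of all tested genes did. DESeq2 and limma also called 0 after adjustment, where they called 2.76% and 0.177% of all genes. The groups did not overlap for 2 of the 31, *Acly* lower and *Acsl4* higher, against 16.1% of all genes. With the replicate block, 0 of the 31 had an adjusted p under 0.05, where 4.7% of all genes did. An unadjusted p under 0.05 in that fit was found for 6 (*Hsd17b12*, *Cyb5r4*, *Acsl4*, *Acly*, *Fasn* and *Mbtps1*), where 22.4% of all genes had one. The median log2 fold change of the 31 was -0.10, and 20 were below 0, where 50.1% of all tested genes were.

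Elongation goes on with a reduction, a dehydration and a last reduction, and the genes of these steps, 4 of 6 tested, had log2 fold changes between -0.16 and 0.33. *Tecr*, which encodes the last enzyme of the cycle, was the most abundant, at 227, 274 and 235 FPKM in WT Teff and 241, 207 and 201 FPKM in Scd-1-/- Teff (log2 fold change -0.16, edgeR adjusted p = 0.782). Desaturation needs electrons from cytochrome b5, and 5 of 6 genes of that list were tested. *Cyb5b*, the most abundant, was at 28.6, 42.4 and 52.7 FPKM in WT Teff and 28.2, 48.7 and 48.4 FPKM in Scd-1-/- Teff, so that replicate 1 was lowest in both genotypes. Among genes that activate or bind acyl chains, *Acsl5* was at 120.8 ± 24.6 FPKM in WT Teff and 117 ± 28.6 FPKM in Scd-1-/- Teff (n = 3 each, SD). *Acsl4*, which prefers arachidonate, did not overlap between the groups, at 7.16 to 9.67 FPKM in WT Teff and 10.2 to 11.1 FPKM in Scd-1-/- Teff (edgeR adjusted p = 0.535).

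Of the 8 genes that supply substrate, 7 were tested and 6 had a log2 fold change below 0, with a median of -0.19. *Fasn*, fatty acid synthase, was at 34.5, 70.8 and 70.7 FPKM in WT Teff and 27.7, 54.0 and 40.6 FPKM in Scd-1-/- Teff, lower in each Scd-1-/- library than in the WT library of the same number. Its log2 fold change was -0.50 (95% interval -1.23 to 0.24, edgeR adjusted p = 0.664, and 0.0529 with the replicate block). *Acly*, which makes cytosolic acetyl-CoA, did not overlap, at 48.3, 53.8 and 62.4 FPKM against 39.9, 47.6 and 44.6 FPKM (log2 fold change -0.29, edgeR adjusted p = 0.522). Of 10 tested genes of transcriptional control, 9 were below 0, with a median of -0.15. *Srebf1*, which encodes SREBP1, was at 24.9, 29.3 and 25.0 FPKM in WT Teff and 27.7, 25.6 and 20.7 FPKM in Scd-1-/- Teff (log2 fold change -0.08, 95% interval -0.42 to 0.27), and *Srebf2* at 150.2, 154 and 137 FPKM against 159, 128 and 111 FPKM (-0.13, 95% interval -0.49 to 0.24). No gene of the 2 lists passed the test in either direction.

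**Figure D4:**
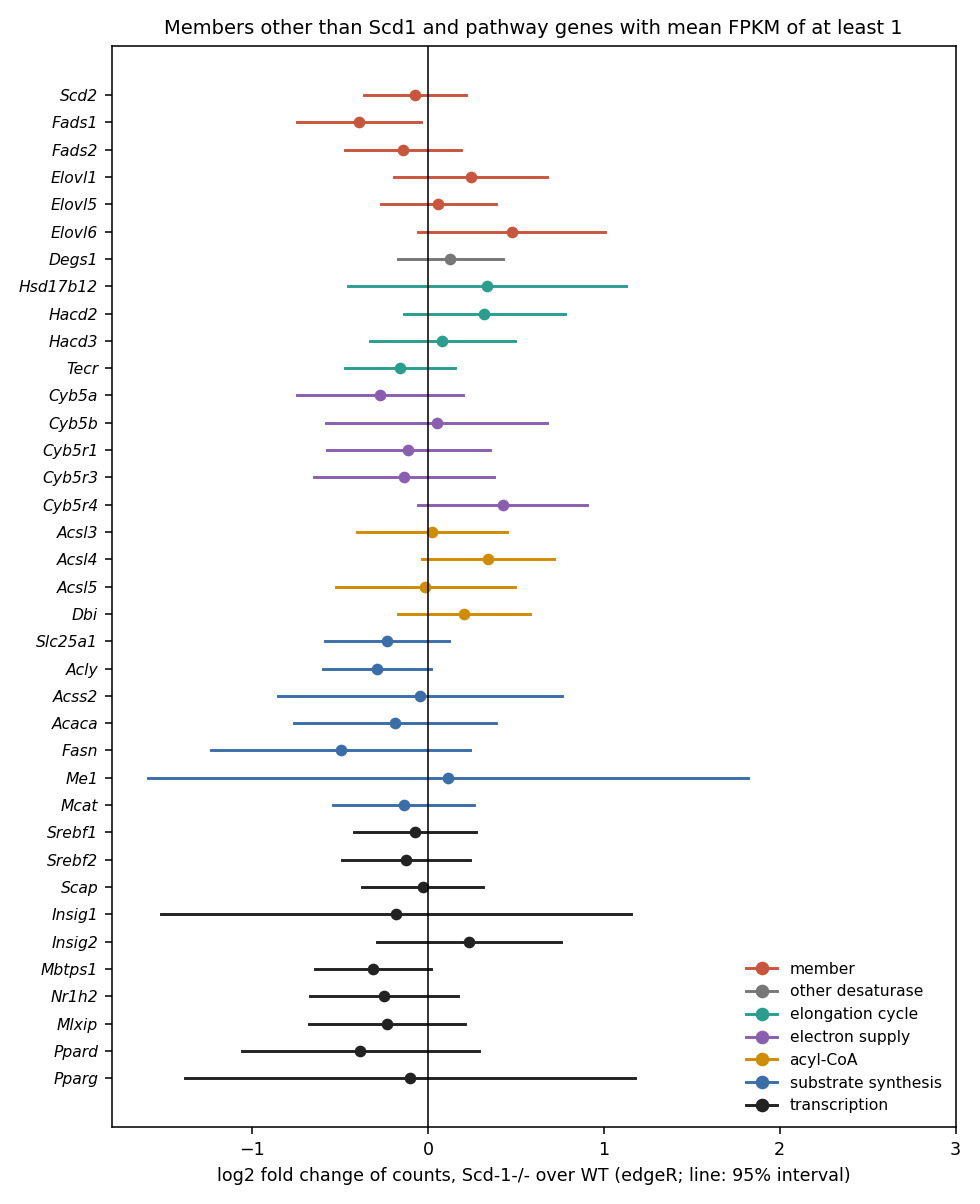
Log2 fold change of the counts, Scd-1-/- over WT (horizontal axis), with 95% intervals from the edgeR fit, for the 6 tested members other than Scd1 (red, top) and 31 genes of the pathway lists (other colours by list). Every interval but that of Fads1 crosses 0, and the widest belong to Me1, Insig1 and Pparg.

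*Scd1* lies in a stretch of chromosome 19 where neighbours could be read as well. Within 500 kb of *Scd1*, 21 annotated genes were listed and 9 were tested. Of the 8 other than *Scd1*, 0 had an adjusted p and 0 an unadjusted p under 0.05 in the edgeR fit, against 0.114% and 10.1% of all genes. DESeq2 called 0, against 2.76%, and the replicate block 0, against 4.7%, with 1 unadjusted p under 0.05 (*Erlin1*, 0.0173), against 22.4%. Their log2 fold changes lay between -0.40 (*Erlin1*, an endoplasmic reticulum protein that binds cholesterol) and 0.31 (*Bloc1s2*, a subunit of an endosomal complex). *Chuk* (0.06), *Ndufb8* (-0.10) and *Hif1an* (-0.08) were closer to 0, as was *Scd2*.

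**Figure D5:**
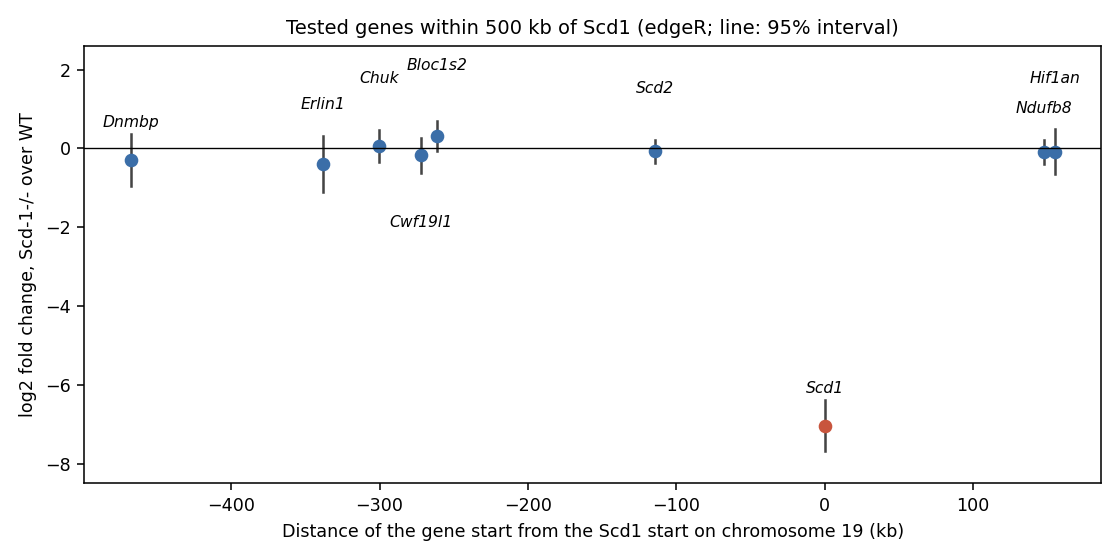
Log2 fold change of the counts, Scd-1-/- over WT (vertical axis), with 95% intervals for the 9 tested genes within 500 kb of Scd1, by the distance of their starts from that of Scd1 in kb (horizontal axis). Scd1 (red) is at -7.04 and the 8 neighbours (blue) lie between -0.40 and 0.31.

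The genes most like *Scd2* across the 6 libraries were sought by the root mean square difference of log2 CPM after each gene was centred on its own mean. Of 9626 genes, the closest were *Pgrmc2* (0.0426), *Rnf14* (0.0526) and *Magt1* (0.0529). *Pgrmc2*, for example, had 16.3, 19.1 and 20.6 FPKM in WT Teff and 17.5 ± 0.447 FPKM in Scd-1-/- Teff (n = 3, SD), with the same order of WT libraries as *Scd2*.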

How the data were processed

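RNA-seq of Teff was measured in 3 WT and 3 Scd-1-/- libraries. Per the submitters' processing notes, reads were processed with HISAT2 and StringTie (1.3.0) on GRCm38. Labels and methods name different RNA extraction and library kits. The authors deposited, per gene and library, a raw count (whole numbers) and an FPKM value. Count divided by FPKM differed between libraries by the ratio of their totals (to within 0.999 to 1.00), so no TMM factor is in the FPKM.

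Counts were tested with edgeR (4.0.16) quasi-likelihood fits, TMM scaling and Benjamini-Hochberg adjustment over 9627 genes whose FPKM averaged at least 1, or over 17192 genes with a count. The standard error is the log2 fold change divided by the root of F. Summed FPKM was compared by exact permutation (SciPy 1.17.1). Positions and transcripts are those of GENCODE M21, matched by Ensembl identifier for 98.6% of genes, and identities were computed with edlib (1.3.9.post1). The fit was run on simulated counts with 200 genes changed by 2 on the log2 scale. It called 188 of them and 5 others at an adjusted p under 0.05. The simulated libraries had no deviations shared by replicate number. Changes as small as those of the members other than *Scd1* were not simulated, so this run does not bear on them.

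The members and lists were chosen with earlier results of these data known. Genes named are the members, the most abundant gene of each list and list genes past the study's thresholds or an adjusted p of 0.05 with or without the block (none), genes within 500 kb of *Scd1*, and the 3 most like *Scd2*. *Acsl4*, *Srebf1*, *Insig1*, *Me1*, *Hsd17b12*, *Acly*, *Fads3*, *Elovl3*, *Cyb5a*, *Cyb5r4*, *Mbtps1* and *Pparg*, and the single marker genes of cell types, were named after their values were seen. Same-numbered libraries deviated together from their group means, with r of 0.618, 0.324 and 0.493 across 9627 genes for replicates 1, 2 and 3, so the numbers were taken to pair the libraries. WT replicate 3 also correlated with Scd-1-/- replicate 2 (0.422) and WT replicate 2 with Scd-1-/- replicate 3 (0.190), while replicate 1 of either genotype correlated negatively with replicates 2 and 3 of the other (-0.592 to -0.328). Alternatives comprised 2 other scalings, 2 FPKM minimums, DESeq2 (1.42.0), limma (3.58.1) with pseudocounts of 1 and 0.1, the replicate block, each library left out, and replicates 2 and 3 alone.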

Additional observations from a re-analysis of the deposited data

How the results depend on the processing

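The log2 fold change of *Scd1* kept its direction and its call in all 15 alternatives, between -7.29 and -5.26. *Scd4*, *Fads2*, *Elovl1* and *Elovl6* kept their direction and stayed uncalled in every alternative run. *Fads1* kept its direction and had an adjusted p under 0.05 only in replicates 2 and 3 alone (-0.53), where 1213 genes had one. Directions turned for *Scd2* without WT replicate 3 (0.0202) and for *Elovl5* without WT replicate 2 (-0.0132). For *Elovl7* they turned without WT replicate 2 (-0.0317), without knockout replicate 1 (-0.0690), without knockout replicate 2 (-0.0824) and in replicates 2 and 3 alone (-0.0144). These were small, uncalled values, and the cause was not tested. With 1 library left out, *Scd2* ran from -0.16 to 0.02, *Scd4* from 0.34 to 0.95, *Fads1* from -0.48 to -0.28, *Fads2* from -0.24 to -0.04, *Elovl1* from 0.03 to 0.35, *Elovl6* from 0.32 to 0.68, *Elovl5* from -0.01 to 0.18 and *Elovl7* from -0.08 to 0.48. The minimum of 5 FPKM gave no value for *Elovl6*, and no fold is given for *Scd3*, which had 1 count.

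Over all genes, 71 passed the thresholds of the study and 11 an adjusted p under 0.05. The numbers were 148 and 84 with no FPKM minimum, 161 and 266 with DESeq2, and 369 and 1213 in replicates 2 and 3 alone. A minimum of 5 FPKM gave 42 past the thresholds, and limma on log2(FPKM + 1) gave 17 with an adjusted p under 0.05. The replicate block gave 184 and 452, and with this pairing no call of a member changed. Leaving out 1 library gave 25 (without WT replicate 2 or 3) to 163 (without Scd-1-/- replicate 1) past the thresholds, and 2 (without Scd-1-/- replicate 3) to 182 (without Scd-1-/- replicate 1) with an adjusted p under 0.05. The cause was not tested. The differences of summed FPKM kept their direction in all 9 alternatives each, but with 1 library left out they ran from -89.2 to -49.0 for Scd, from -26.6 to -8.35 for Fads and from 0.634 to 7.56 for Elovl genes, and with 3 libraries per genotype no exact test of a sum can go under 0.1.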

Other observations

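Replicate 1 stood apart from replicates 2 and 3 across the 9627 tested genes (r of the deviations of both replicate 1 libraries, 0.618), and values of single genes follow. *Insig1*, which retains SREBP in the endoplasmic reticulum and is itself an SREBP target, was at 54.3, 17.6 and 21.8 FPKM in WT replicates 1, 2 and 3 and at 49.9, 15.7 and 16.1 FPKM in the Scd-1-/- libraries. *Me1*, which supplies NADPH, had 257, 61 and 89 counts in WT and 321, 64 and 69 counts in Scd-1-/- libraries. *Fasn* was lowest in replicate 1 of each genotype. *Hsd17b12*, which encodes the second enzyme of the elongation cycle, was at 10.2 FPKM in WT replicate 1 and at 20.4 to 30.4 FPKM in the other 5 libraries. Among the members, *Scd2*, *Fads1* and *Fads2* were lowest in replicate 1 of WT and not of Scd-1-/- Teff. The labels do not say what a replicate number stands for, and these genes were picked after their values were seen.

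*Fads3*, which neighbours *Fads2* and desaturates sphingoid bases, was below the FPKM minimum. It had 12, 16 and 8 counts in WT and 23, 44 and 26 counts in Scd-1-/- libraries, and the groups did not overlap. Of the genes above the minimum, 16.1% did not overlap, and the share among scarcer genes was not counted. Its log2 fold change was 1.32 (95% interval 0.20 to 2.44), with an unadjusted p of 0.0255 and an adjusted p of 0.466 over 17192 genes in edgeR's quasi-likelihood test. Of the other genes of that list, *Elovl3* was at 0 counts in all 6 libraries, and *Degs1*, the ceramide desaturase, was at 21.9 ± 1.45 FPKM in WT Teff and 23.5 ± 0.802 FPKM in Scd-1-/- Teff (n = 3 each, SD, log2 fold change 0.13, edgeR adjusted p = 0.827).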
